A study of Mus musculus with 6 samples.

Results

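Transcripts of muscle fibres and of muscle precursor cells were followed through macrophages sorted from regenerating skeletal muscle of old and young mice. The set was chosen by name: 38 genes, 30 of the contractile fibre and its calcium, energy and oxygen supply (the fibre members) and 8 myogenic regulators and muscle precursor genes (the regulator members). All 38 were found among the 54966 features of the deposited table and were kept at any level. The old group was 3 libraries of wild-type old mice and the young group 3 libraries of wild-type young mice. In both, skeletal muscle had been injured with barium chloride, which destroys fibres, and macrophages positive for CD11b and F4/80 and low for Ly6C had been sorted 3 days later. The labels describe the cells as pro-repair and give neither the ages nor the sex of the animals. Nor do they tie a library to an animal, so each p-value here reflects how much libraries of a group vary, and part of that variation may be technical.

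A muscle fibre contracts when myosin heads of the thick filament pull on actin in the thin filament, under the control of calcium, troponin and tropomyosin. After an injury, satellite cells, the stem cells of muscle marked by Pax7, divide and turn on the transcription factors Myf5 and Myod1 and then Myog, which starts differentiation. The myoblasts fuse through the membrane proteins Myomaker (Mymk) and Myomixer (Mymx) into new fibres, which first make developmental forms of actin and myosin and later replace them by adult forms. Macrophages surround and engulf dying fibres and lie close to the myoblasts.

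The values are FPKM, the fragments of a gene per kilobase of its length after scaling for library size, which allow levels to be compared between genes. Multiplying them by gene length gave whole fragment numbers, from which 17890034 to 19400929 fragments were recovered per old library and 16543939 to 18353692 per young library. Macrophage markers defined the libraries: 12 such genes summed to between 16343 and 19748 FPKM in old and between 16014 and 18641 FPKM in young libraries. Lyz2 had the highest level of the 12. With Lyz2 included, the sums of the groups overlapped. The other 11 genes summed to between 7752 and 8450 FPKM in old and between 6530 and 7354 FPKM in young libraries. Without Lyz2 the sums thus did not overlap. Of the 12 genes, 5 were separated and higher in old and 0 lower. Beside this count, 12.3% of the 11108 genes averaging 1 FPKM or more were separated and higher in old, and 8.59% lower. All 12 markers reached that level. All 12 were present in all libraries, and the F4/80 gene Adgre1 had 430.2 to 476.3 FPKM in old and 347.4 to 381.7 FPKM in young.

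Against that level the muscle transcripts were traces, and most of them were scarcer in the old libraries. The 38 members summed to 17.0, 12.7 and 17.0 FPKM in old replicates 1 to 3, against 27.7, 33.5 and 27.6 FPKM in young replicates 1 to 3. In fragments, these were 693, 490 and 686 in old, against 1188, 1204 and 940 in young. The sums did not overlap, and the mean sum in old was 0.525 times that in young. In sorted cells pooled for a library, fewer cells of a type and less RNA per cell cannot be told apart.

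Of the 38 members, 19 were lower in each old library than in any young library, 1 (Pvalb) was higher in each, and 18 overlapped. Over all 26087 features above 0 in any library, groups that did not overlap made up 7.21% in the direction lower in old and 6.97% in the direction higher in old. Of the 9 members with a mean of at least 1 FPKM, 5 were separated and lower in old, and 0 were separated and higher, where the shares over all 11108 such genes were 8.59% and 12.3%. At a mean of at least 0.1 FPKM, 14 of 26 members were lower and 0 higher, where the shares were 8.64% and 9.45%. The other 5 separated members, Myh1, Myh8, Actn2, Neb and Pax7, averaged under 0.1 FPKM.

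**Figure D1:**
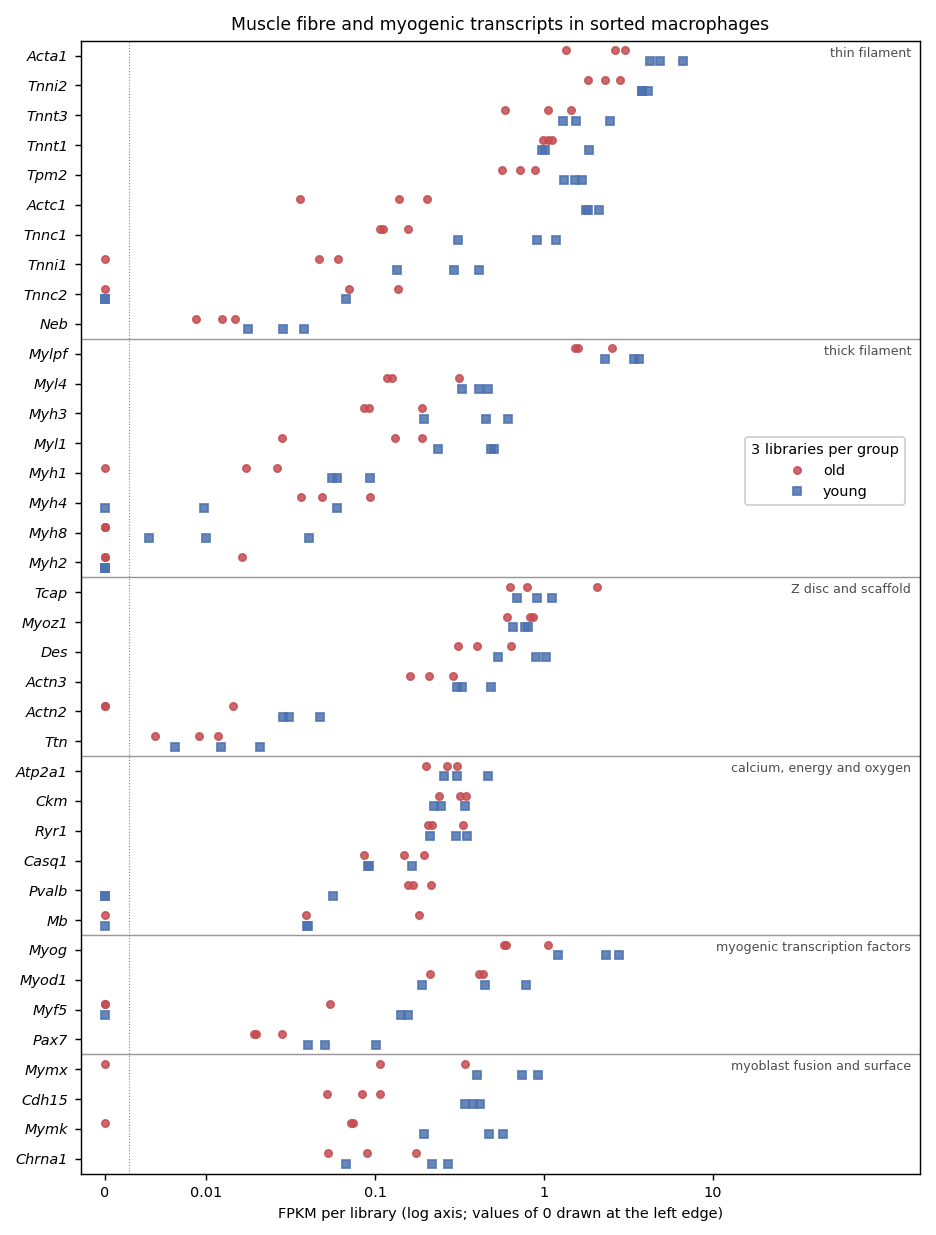
FPKM of each member (rows, grouped by role) in the 3 old libraries (red circles) and the 3 young libraries (blue squares) on a log axis, with values of 0 drawn at the left edge. Actc1 shows the widest gap among the thin filament genes, with 0.0359 to 0.202 FPKM in old and 1.77 to 2.13 FPKM in young, while the symbols of the calcium, energy and oxygen genes mix, except those of Pvalb.

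Actc1, which encodes cardiac alpha-actin, the form that developing and regenerating skeletal muscle also makes before it turns to skeletal alpha-actin, fell in old. It had 0.138, 0.0359 and 0.202 FPKM in old replicates 1 to 3, against 1.77, 2.13 and 1.81 FPKM in young replicates 1 to 3. These stand for 4, 1 and 6 fragments in old and 53, 58 and 50 in young. The groups lay far apart, and within the young group the libraries were close to each other. On the log2(FPKM + 1) scale, which understates changes of low genes, the change was -1.37 (SE 0.125, limma adjusted p = 0.0444). The summed fragment rate in old was 0.067 times that in young, with an exact 95% interval of 0.0328 to 0.123 that covers counting error only. Over all 11108 genes tested, 0.018% were called lower and 0.018% higher. Actc1 averaged 1.02 FPKM over the 6 libraries, so it reached the minimum of 1 FPKM for testing only through the young group, and a gene that passes in that way had to differ. The call was lost when any 1 of the 6 libraries was left out (limma adjusted p = 0.0574 without young replicate 1, and 0.1 to 0.168 without each of the others), with changes between -1.42 and -1.31. It was also lost with a pseudocount of 0.1 (adjusted p = 0.0858), without the filter (adjusted p = 0.068) and on rescaling to TPM (adjusted p = 0.065). Fitting the replicate number as a block lost it too, with the largest limma adjusted p of all alternatives (0.169). Voom on the recovered fragments kept the call (adjusted p = 0.0327, log2 change -3.95).

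The gene lies on chromosome 2, at 114047282 to 114053548 on the minus strand (GENCODE M21, GRCm38). The RefSeq start used below lies inside the gene as GENCODE draws it, so the printed window is part of that gene. Its exons overlap those of no other annotated gene, and none of the 1568 stretches of 50 bases in its transcripts occurs in a transcript of another gene. The promoter is printed with those of the other 2 members that hold a CArG box, the site read by serum response factor, a control element well known from the muscle actin genes. Sequences run 5′ to 3′ on the gene's strand, from 250 bases before to 50 bases after the RefSeq start (GRCm38.p6). Capitals mark the CArG box and the E-box CAGCTG, a site of the MyoD family. The windows are chr2:114052826-114053125 (minus strand) for Actc1, chr8:123894726-123895025 (minus strand) for Acta1, and chr11:67237562-67237861 (plus strand) for Myh4.
Actc1: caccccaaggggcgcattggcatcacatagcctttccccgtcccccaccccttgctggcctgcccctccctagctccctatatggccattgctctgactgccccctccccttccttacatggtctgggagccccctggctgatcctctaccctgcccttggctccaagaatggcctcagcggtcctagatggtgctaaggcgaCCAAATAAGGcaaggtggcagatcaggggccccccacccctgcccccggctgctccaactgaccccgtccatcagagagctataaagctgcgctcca
Acta1: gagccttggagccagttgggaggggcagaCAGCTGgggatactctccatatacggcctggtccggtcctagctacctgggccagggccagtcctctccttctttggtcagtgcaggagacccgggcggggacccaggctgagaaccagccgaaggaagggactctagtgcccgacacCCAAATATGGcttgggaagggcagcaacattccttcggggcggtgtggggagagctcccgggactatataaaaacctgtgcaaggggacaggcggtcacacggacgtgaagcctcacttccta
Myh4: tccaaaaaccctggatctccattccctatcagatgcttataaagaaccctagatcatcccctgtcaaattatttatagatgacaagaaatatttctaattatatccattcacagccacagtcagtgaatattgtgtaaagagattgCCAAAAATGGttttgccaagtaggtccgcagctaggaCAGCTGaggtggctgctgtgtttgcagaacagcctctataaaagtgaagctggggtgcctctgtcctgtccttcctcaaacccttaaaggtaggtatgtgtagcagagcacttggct
RefSeq windows were matched by symbol for 29 of the 38 members. The CArG box begins 47 bases before the annotated start in Actc1, 73 before it in Acta1 and 104 before it in Myh4. The letters TATAAA were found on either strand in 10 of the 29 windows (34.5%, against 15.7% of all genes), 34 bases past the annotated start in Actc1 and 7 bases before it in Acta1. A CArG box was found in 3 of the 29 (10.3%), where 1.81% of all 27025 genes with a window had it, and CAGCTG in 12 of the 29 (41.4%), where 18.3% had it. The letters CATTCC, the MCAT motif, were found on either strand in 6 (20.7%, against 16.6% of all genes), and the MEF2 motif in 1, Ttn (3.45%, against 0.636%). Matches were counted on both strands and could overlap. Of the 12 members with CAGCTG, 11 were fibre members and 1, Chrna1, was a regulator member. The 3 members that share the CArG box differed in direction: Actc1 and Acta1 were lower in each old library than in any young one, while Myh4 had 10, 5 and 4 fragments in old and 0, 6 and 1 in young.

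Among the other thin filament genes, 6 of 9 were separated and lower in old. For this and the following counts by role, the share over all 26087 features above 0 was 7.21% lower and 6.97% higher. Of the 9, 5 reached the minimum for testing (Acta1, Tnni2, Tpm2, Tnnt1, Tnnt3), and 0 of these passed limma's test. Acta1, the skeletal alpha-actin of adult fibres, was the most abundant member, with 2.62, 1.36 and 3.02 FPKM in old against 4.22, 6.66 and 4.89 FPKM in young. Its lowest young library lay above its highest old library, and the log2 change was -0.93 (SE 0.226, limma adjusted p = 0.172). Actc1 and Acta1 thus stood at different ratios, since the Acta1 fragment rate in old was 0.45 times that in young (95% counting interval 0.378 to 0.535). Unlike those of Actc1, 2.02% of the 50-base stretches of Acta1 occur in other genes, among them the actin gene Actb. Whether fragments of such genes were counted for Acta1 was not tested.

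The fast troponin I gene Tnni2, whose product inhibits contraction until calcium arrives, had 1.83, 2.29 and 2.81 FPKM in old against 3.79, 3.81 and 4.12 FPKM in young. The young libraries were tightly grouped, and the change of -0.58 (SE 0.117) did not pass (limma adjusted p = 0.144). Tpm2, a tropomyosin that covers the myosin sites on actin, had 0.885, 0.718 and 0.562 FPKM in old against 1.32, 1.68 and 1.53 FPKM in young (log2 change -0.55, limma adjusted p = 0.169). The slow troponin genes parted. Tnni1 had 3, 0 and 4 fragments in old against 9, 25 and 18 in young, and Tnnc1, the calcium-binding subunit of slow and cardiac muscle, had 2, 2 and 3 against 6, 16 and 21. Tnnt1, the slow tropomyosin-binding subunit, overlapped, with 0.99, 1.05 and 1.11 FPKM in old and 0.981, 1.86 and 1.01 FPKM in young. Its log2 change of -0.13 turned to 0.039 without young replicate 2.

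The fast troponin T gene Tnnt3 overlapped as well, with 1.06, 0.587 and 1.45 FPKM in old and 1.3, 2.48 and 1.56 FPKM in young (log2 change -0.45, limma adjusted p = 0.38). Neb, which encodes the thin filament ruler nebulin, had 7, 4 and 6 fragments in old against 14, 17 and 8 in young and was separated at a level under 0.1 FPKM. Tnnc2, the fast calcium-binding subunit, had 3 fragments in all old and 1 in all young libraries, too few to show a difference. Its exons overlap those of Ube2c on the other strand.

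The thick filament genes gave 5 separated members of 8, all of them lower in old and all below the minimum for testing. Mylpf, which overlapped, was the only one of the 8 tested. The embryonic myosin heavy chain Myh3 had 0.0923, 0.0862 and 0.189 FPKM in old against 0.616, 0.452 and 0.194 FPKM in young. Old replicate 3 and young replicate 3 almost met, and the summed fragment rate in old was 0.29 times that in young (95% counting interval 0.199 to 0.416). Myh8, the perinatal heavy chain, had 0 fragments in all old libraries and 1, 8 and 2 in young, which made it at least 3.74-fold lower in old against a floor of 3 fragments over the group. The exact 95% counting interval is wider and reaches a rate in old of 0.39 times that in young. The adult fast heavy chains did not follow a single direction. Myh1 had 3, 0 and 2 fragments in old against 7, 10 and 6 in young, Myh4 had 19 in all old and 7 in all young libraries, and Myh2 had 2 in old and 0 in young. These genes lie side by side on chromosome 11 and resemble each other: 25.4% of the 50-base stretches of Myh1, 22.9% of Myh2, 18.9% of Myh4, 12.1% of Myh8 and 4.76% of Myh3 occur in other genes, so how the fragments were shared out among these genes is uncertain.

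Of the light chains, which stiffen or tune the myosin neck, Myl4, the embryonic and atrial form, had 0.314, 0.125 and 0.118 FPKM in old against 0.326, 0.41 and 0.469 FPKM in young. Old replicate 1 nearly reached young replicate 1. Myl1, the fast essential light chain, had 7, 1 and 5 fragments in old against 9, 17 and 18 in young, and 11.7% of its 50-base stretches also occur in the pseudogene Mylf-ps. Mylpf, the fast regulatory light chain and the most abundant gene of the thick filament, overlapped, with 2.53, 1.53 and 1.59 FPKM in old and 2.29, 3.42 and 3.65 FPKM in young (log2 change -0.52, limma adjusted p = 0.268).

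Genes of the Z disc and of the scaffold, which anchor and space the filaments, were mixed, with 2 of 6 separated and lower in old. Actn3, the alpha-actinin of fast fibres, had 0.29, 0.16 and 0.207 FPKM in old against 0.486, 0.329 and 0.304 FPKM in young. Actn2, the alpha-actinin of all fibres, had 1 fragment in all old and 7 in all young libraries. Des, the intermediate filament desmin that is made from the myoblast stage on, had 0.402, 0.309 and 0.639 FPKM in old and 1.02, 0.903 and 0.532 FPKM in young, and overlapped through old replicate 3 and young replicate 3. The titin gene Ttn had 19, 10 and 25 fragments in old and 45, 24 and 13 in young, which overlapped. The remaining Z disc genes overlapped. Tcap, the titin cap, had 2.07, 0.796 and 0.633 FPKM in old and 0.913, 0.69 and 1.11 FPKM in young, and its change of 0.13 turned to -0.15 without old replicate 1. Myoz1, a calcineurin-binding protein of fast fibres, had 0.828, 0.859 and 0.605 FPKM in old and 0.772, 0.66 and 0.807 FPKM in young, a rate ratio of 1.02 (95% counting interval 0.731 to 1.42).

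The genes of calcium handling, energy and oxygen supply, products of mature fibres, gave other counts than the filament genes: 0 of 6 were separated and lower in old, 1 was separated and higher, and 4 of 6 had the higher mean in old. With shares of 7.21% lower and 6.97% higher over all features above 0, these separated counts do not set the 6 genes apart from other features. Their sum was 1.28, 1.01 and 1.33 FPKM in old and 1.2, 0.932 and 1.05 FPKM in young, with overlap. Ckm, the muscle creatine kinase that buffers ATP, had 18, 12 and 17 fragments in old and 12, 12 and 17 in young. The calcium release channel gene Ryr1 was the best covered, with 129, 82 and 82 fragments in old and 141, 110 and 79 in young, a rate ratio of 0.87 (95% counting interval 0.741 to 1.02). Atp2a1, the calcium pump of fast fibres, had 19, 12 and 17 fragments in old and 30, 15 and 18 in young. Casq1, the calcium store protein, had 3, 5 and 7 in old and 6, 3 and 3 in young. Exons of Ryr1, Atp2a1, Ckm, Casq1 and Mb overlap exons of genes on the other strand. Among these are the protein-coding Rabep2 for Atp2a1 and Apol6 for Mb, where 476 of 1492 exon bases overlap other genes. Besides Tnnc2, members of other roles overlap opposite-strand exons too: Myh1 (515 bases), Ttn (453), Myh2 (237), Des (220), Neb (45) and Myl4 (3). The strandedness of the libraries is not given in the sources used here.

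Pvalb, which encodes the calcium buffer parvalbumin of the fastest fibres, was the only member separated and higher in old. It had 0.215, 0.167 and 0.157 FPKM in old against 0, 0 and 0.0564 FPKM in young, which stand for 4, 3 and 3 fragments against 0, 0 and 1. The groups did not overlap. The rate ratio of 9.80 had a 95% counting interval of 1.39 to 425.1, and the gene averaged too little for the test. Of all features above 0, 6.97% were separated and higher in old, and 1 of 38 members lies below that share. Myh4 also had an interval above 1 (ratio 2.66, 95% counting interval 1.07 to 7.48), but its groups overlapped. Mb, the oxygen store myoglobin, had 0, 1 and 5 fragments in old and 0, 1 and 1 in young.

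**Figure D2:**
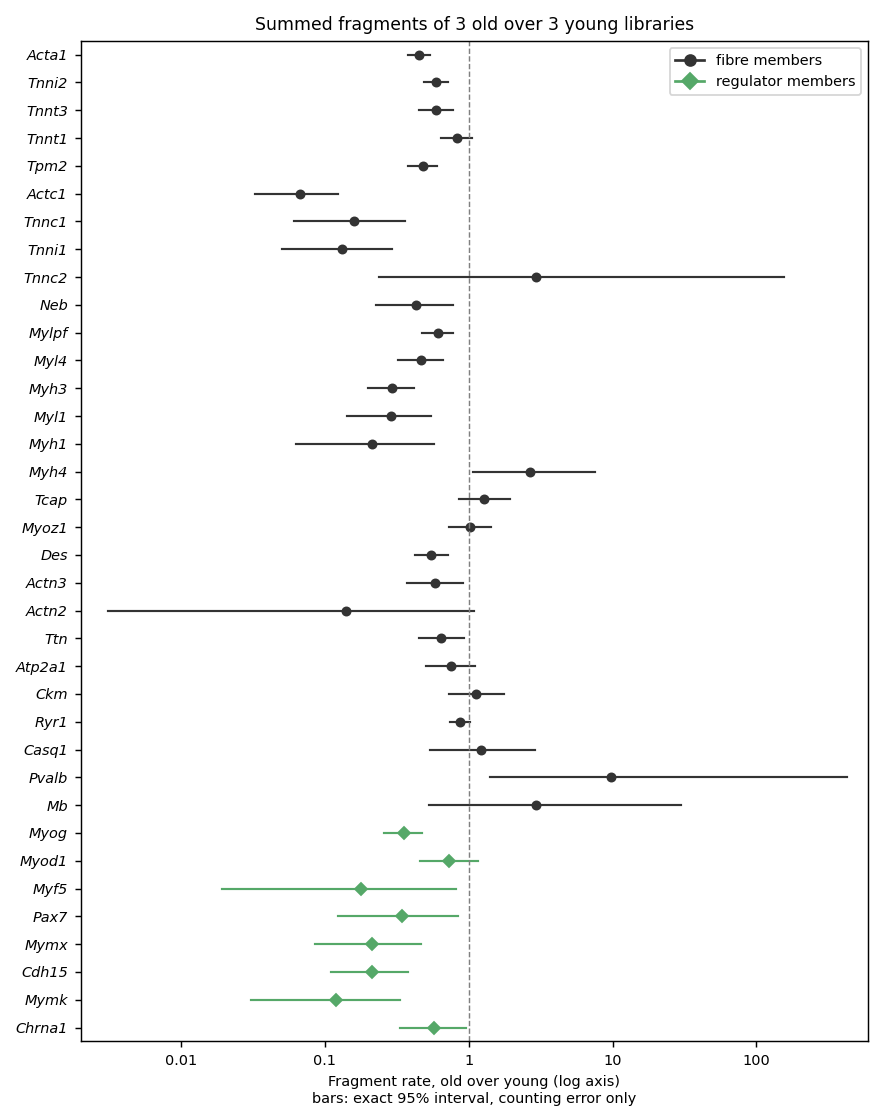
Summed fragments of the 3 old libraries over those of the 3 young libraries, scaled to library size, for the members with fragments in both groups (log axis; bars are exact 95% intervals for counting error only). Actc1 at 0.067 and the fusion gene Mymk at 0.119 lie far to the left, Ryr1 at 0.87 and Myoz1 at 1.02 lie near 1, and the wide bar of Pvalb rests on 10 fragments in old and 1 in young.

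The regulators and precursor genes were lower in old by mean in 8 of 8 and separated in 5 of 8. Over all 26087 features above 0, 51.7% had a negative log2 change and 7.21% were separated and lower. Myog, the transcription factor of differentiating myoblasts, was the only regulator above the minimum for testing. It had 0.599, 0.582 and 1.06 FPKM in old against 2.78, 2.35 and 1.22 FPKM in young. Young replicate 3 lay just above the highest old library, and the change of -0.81 (SE 0.22) did not pass (limma adjusted p = 0.201). Pax7, the satellite cell factor, had 2, 2 and 3 fragments in old against 11, 5 and 4 in young, and was separated. Myod1, the commitment factor, had 7, 14 and 14 fragments in old and 27, 14 and 6 in young, with overlap on both sides. Myf5, another early factor, had 2, 0 and 0 in old and 6, 5 and 0 in young.

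The genes of myoblast fusion and surface were lower in old by mean in 4 of 4, with a mean sum of 0.384 ± 0.149 FPKM in old and 1.67 ± 0.576 FPKM in young (SD, n = 3 each). Mymk, the Myomaker gene, had 2, 0 and 2 fragments in old against 16, 12 and 5 in young. Mymx, the Myomixer gene, had 0, 6 and 2 in old against 14, 16 and 7 in young. Cdh15, which encodes the M-cadherin that joins satellite cells to fibres, had 3, 6 and 5 in old against 23, 23 and 19 in young, with little spread within the young group. All 3 were separated. Chrna1, the alpha subunit of the acetylcholine receptor at the nerve contact, overlapped, with 7, 4 and 14 fragments in old and 22, 16 and 5 in young.

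Set against each other, the regulator sum in old was 0.344 times that in young and the fibre sum 0.556 times. The fibre members summed to 15.9, 11.1 and 15.04 FPKM in old replicates 1 to 3, against 21.9, 28.5 and 25.2 FPKM in young replicates 1 to 3. The regulator members summed to 1.1, 1.54 and 1.93 FPKM in old, against 5.79, 5.02 and 2.45 FPKM in young. Both sums separated the groups. The ratio of the fibre to the regulator sum did not: it was 14.5, 7.24 and 7.78 in old and 3.78, 5.68 and 10.3 in young. Within the young group, the libraries ranked differently by the 2 sums. Young replicate 3 had the lowest value of the young group in 8 of 8 regulator members, and young replicate 1 had the highest in 6 of 8. Among the 30 fibre members, young replicate 1 was the lowest of its group in 16 and young replicate 3 in 8. By member, the median change on the log2(FPKM + 1) scale was -0.08 over the fibre members and -0.23 over the regulator members, where the median over all 26087 features above 0 was -0.002. That scale understates changes of low genes, and 10 of the 30 fibre and 2 of the 8 regulator members averaged under 0.1 FPKM. At a mean of at least 0.1 FPKM, the medians were -0.31 over 20 fibre members and -0.39 over 6 regulator members. Over all 17659 such features the median was 0.0007.

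**Figure D3:**
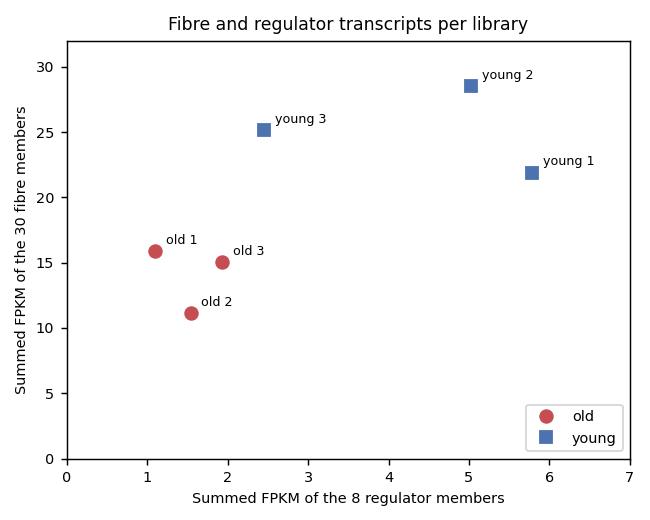
Summed FPKM of the 30 fibre members against that of the 8 regulator members, 1 point per library (red circles old, blue squares young). The old libraries lie at the lower left, with at most 15.9 FPKM of fibre and 1.93 FPKM of regulator transcripts, and young replicate 3 has a low regulator sum of 2.45 FPKM beside a fibre sum of 25.2 FPKM.

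Grouped by isoform class, developmental isoforms had a lower ratio of old to young than the adult fast isoforms. Which cells made these transcripts was not tested. The 4 developmental genes (Actc1, Myh3, Myh8, Myl4) summed to 0.434 ± 0.162 FPKM in old and 2.75 ± 0.275 FPKM in young (SD, n = 3 each), a ratio of 0.158, and 4 of 4 were separated and lower in old. Actc1 made up most of that sum in young, so the ratio of the sums largely follows Actc1. The 13 adult fast isoforms summed to 7.05 ± 0.882 FPKM in old and 10.9 ± 1.13 FPKM in young, a ratio of 0.645. Of these 13, 4 were separated and lower and 1, Pvalb, separated and higher. Tnni2 (3.91 FPKM in young), Mylpf (3.12) and Tnnt3 (1.78) had the highest levels of the 13. Of the 3 slow isoforms, 2 were separated and lower, and their sums gave a ratio of 0.512. Beside these counts, the shares over all 26087 features above 0 were 7.21% separated and lower in old and 6.97% higher. By member, the median ratio was 0.159 in the slow, 0.179 in the developmental and 0.678 in the adult fast class. A low ratio was thus not particular to developmental isoforms. Of the developmental isoforms other than Actc1, Myh8 had 0 fragments in old, Myh3 stood at 0.29 and Myl4 at 0.465. The adult fast Myh1 and Myl1 stood at 0.213 and 0.289. The difference between these classes was not tested, since the members were chosen with results of these data known.

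**Figure D4:**
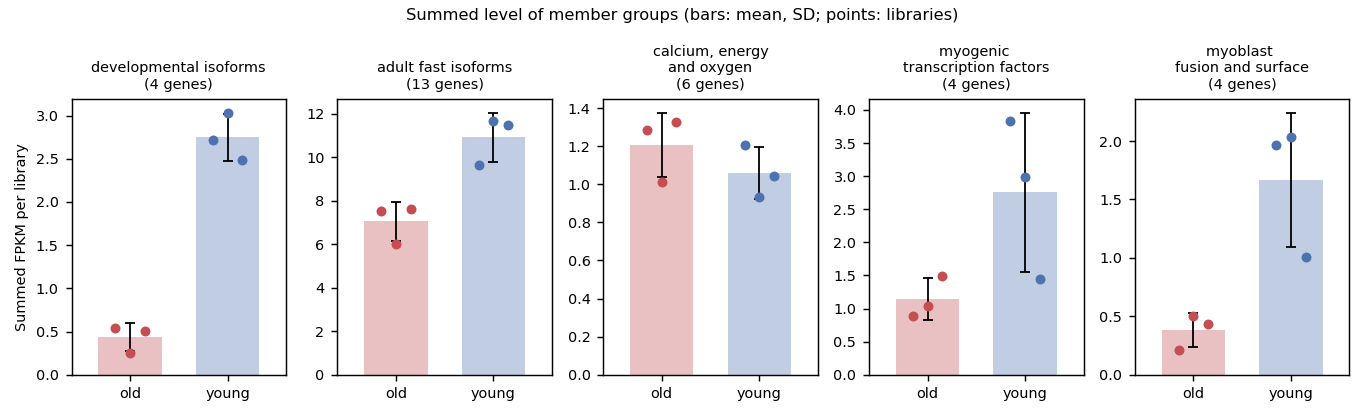
Summed FPKM per library for 5 groups of members, old left of young in each panel (bars are means, error bars SD, points the 3 libraries). The developmental isoforms (0.434 in old, 2.75 in young) and the fusion and surface genes (0.384 and 1.67) separate widely, while the points of the calcium, energy and oxygen genes overlap.

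Tests on all genes at once called Actc1 and no other member. Of the 9 members tested at a mean of at least 1 FPKM, 6 were lower at an unadjusted p under 0.05 and 0 higher, where 6.18% of all genes were lower and 8.84% higher at that p. The 8 others had limma adjusted p from 0.144 to 0.84. Members near the minimum were Actc1 (1.02 FPKM) and Tcap (1.04 FPKM) above it and Myoz1 (0.755 FPKM) below it. With voom on the recovered fragments of 17272 genes averaging 0.1 FPKM or more, an alternative added after seeing the data, 26 members entered and 15 were lower and 0 higher at an unadjusted p under 0.05, where 6.28% of all genes were lower and 7.13% higher. In that fit 0.191% of genes were called lower and 0.359% higher after adjustment, again with Actc1 as the only member (log2 change -3.95, SE 0.52, adjusted p = 0.0141). Next came Cdh15 (-2.18, adjusted p = 0.0665), Tpm2 (-1.07, adjusted p = 0.0927) and Acta1 (-1.20, adjusted p = 0.108). A member that passed a minimum mainly through the young group had to differ, so these counts give no support of their own.

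Other genes of muscle were looked up in 3 further lists, at any level. Over all 26087 features above 0, 7.21% were separated and lower in old and 6.97% higher. These shares stand beside the counts of each of the 3 lists. Of 36 more sarcomere genes, 6 were separated and lower in old and 1 higher, 2 were tested and 0 passed limma's test (0 at an unadjusted p under 0.05). Their sums, 5.16 to 6.79 FPKM in old and 6.83 to 8.44 FPKM in young, did not overlap. The most abundant were Cryab, a chaperone, with 1.16 ± 0.364 FPKM in old and 1.32 ± 0.486 FPKM in young (SD, n = 3 each), and Myom1, an M band protein, with 1.02 ± 0.119 and 1.42 ± 0.273 FPKM in old and young. Tnni3 had 0.708 FPKM in old and 1.17 in young, Nrap 0.555 and 0.38, Klhl40 0.419 and 0.321, and Xirp1 0.346 and 0.333. Among the lower ones, chosen after their values were seen, was Tnnt2, the troponin T of heart and embryonic skeletal muscle, with 6, 2 and 5 fragments in old against 28, 34 and 27 in young. It passed voom at a mean of at least 0.1 FPKM (adjusted p = 0.0369), a minimum that it reached only through the young group, so it had to differ. Unc45b, a myosin chaperone, had 2, 1 and 3 against 18, 12 and 7.

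Of 27 further genes of calcium handling, energy and membrane, 4 were separated and lower in old and 0 higher, and 0 of the 6 tested passed limma's test (0 at an unadjusted p under 0.05). Amd1, an enzyme of polyamine synthesis that many cell types make, had 22.3 FPKM in old and 20.4 in young. Pygm, the muscle glycogen phosphorylase, had 5.03 and 5.43, Eno3 4.66 and 5.01, Cox6a2 3.36 and 3.22, Pgam2 2.53 and 3.55, and Stac3 1.46 and 1.53 FPKM in old and young. The groups of these 6 genes overlapped. The list summed to 40.1 to 42.9 FPKM in old and 40.5 to 44.3 FPKM in young, and without Amd1 to 19.0 to 19.8 FPKM in old and 21.1 to 24.3 FPKM in young. Chrng, the fetal subunit of the acetylcholine receptor, was among the separated genes (chosen after its values were seen), with 2, 1 and 3 fragments in old against 12, 4 and 11 in young. Musk, the kinase that organises the nerve contact, had 0 in old and 4, 2 and 2 in young.

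Of 24 further regulators and stem cell genes, 4 were separated and lower in old and 1 higher, and 0 of the 8 tested passed limma's test (at an unadjusted p under 0.05, 1 lower and 1 higher). Itga7, an integrin of satellite cells and fibres, was the lower one at that p, with 1.24, 1.69 and 1.42 FPKM in old against 2.18, 2.15 and 1.91 FPKM in young (limma adjusted p = 0.233). The higher one was Mef2a, with 24.2 ± 0.0616 FPKM in old and 19.8 ± 1.13 FPKM in young (limma adjusted p = 0.171). Mef2d (44.9 and 44.8 FPKM in old and young), Mef2c (7.14 and 6.97) and Tnfrsf12a (51.9 and 41.4), which many cell types make, overlapped, as did Rapsn (3.11 and 4.37) and Gal (2.33 and 2.09). The sums of this list overlapped, at 122.8 to 150.8 FPKM in old and 116.8 to 130.5 FPKM in young. Without Tnfrsf12a they overlapped too, at 82.9 to 86.4 FPKM in old and 80.3 to 85.2 FPKM in young. Myf6 and Pax3, also myogenic factors, were at 0 in all 6 libraries. Msc, a repressor in myoblasts, had 0 fragments in old and 4, 3 and 3 in young, and Heyl, a Notch target of satellite cells, had 3, 1 and 1 against 14, 16 and 6; both were chosen after their values were seen.

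Markers of other cells of injured muscle were also traces, and several moved in the same direction. The share to set beside each count is that over all 26087 features above 0, with 7.21% separated and lower in old. Of 10 fibroblast markers, 5 were separated and lower in old, 0 higher and 0 at 0 in all libraries. Their sum without Gsn, which macrophages make too (124.0 FPKM in old and 129 in young), was 1.55 to 2.56 FPKM in old and 3.37 to 6.67 FPKM in young. Col1a1 had 0.539 ± 0.334 FPKM in old and 1.55 ± 0.578 FPKM in young (SD, n = 3 each), and Col3a1 0.461 and 1.4 FPKM. Of 8 markers of smooth muscle and pericytes, 4 were separated and lower in old, with sums of 3.43 to 5.16 FPKM in old and 5.65 to 9.59 FPKM in young. That list includes the member Des, and its leading genes were Cspg4 (2.07 and 3.22 FPKM in old and young) and Acta2 (1.12 and 2.52).

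Of 8 endothelial markers, 1, Pecam1, was separated and lower in old (1.35 ± 0.0208 and 2.41 ± 0.172 FPKM in old and young), and passed voom at a mean of at least 0.1 FPKM (adjusted p = 0.0281). For a list of 8, a count of 1 lies near the share of 7.21% over all features above 0. The sums of the list overlapped, at 5.54 to 10.4 FPKM in old and 7.13 to 9.69 FPKM in young. Without Kdr, which had the highest level of the list and the higher mean in old, they did not overlap. These sums were 3.22 to 3.72 FPKM in old and 4.67 to 6.21 FPKM in young. The others of highest level were Kdr (4.46 and 2.97 FPKM) and Cdh5 (0.868 and 1.2 FPKM). Of 8 heart markers, Ryr2 and Myl7 were at 0 in all libraries, Myh6 had 1 fragment in all, and the sums were 6.17 to 7.33 FPKM in old and 7.03 to 7.76 FPKM in young. They came mostly from Mybpc3 (5.62 and 6.02 FPKM), followed by Tnni3 and Nppa (0.285 and 0.0437 FPKM). Without Mybpc3 the sums overlapped as well, at 0.9 to 1.31 FPKM in old and 1.04 to 1.78 FPKM in young. Of 6 erythroid markers, 3 were at 0 in all libraries, and the sums were at most 1.11 FPKM in old and 0.844 FPKM in young. The markers tested were 12 of the macrophage, 2 of the fibroblast, 2 of the smooth muscle, 3 of the endothelial, 1 of the heart and 0 of the erythroid list, and 0 of these passed limma's test. At an unadjusted p under 0.05, 1 fibroblast, 1 smooth muscle, 1 endothelial and 1 macrophage marker (Cx3cr1) were lower and 4 macrophage markers higher in old. With voom, Pecam1 was the only marker that passed. The part of such cells in the muscle transcripts was not tested.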

How the data were processed

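A column kit for small samples was used to extract RNA, per the labels. The authors deposited 1 table of FPKM per gene and library, on genome build GRCm38.p6 per the submitters' processing notes. Not given in the sources used here: aligner, counting tool, annotation release, strandedness. Lengths, places and overlaps came from GENCODE M21, which held 54495 of the 54966 identifiers (99.1%), and may differ from the annotation used.

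FPKM times exon-union length gave whole multiples of 1 fragment, within 0.02 and for multiples below 200, in 97.5% to 97.6% of values per library, so fragments were recovered from these steps. Rates use the denominators that the steps imply. A count of 0 in a group was replaced by a floor of 3 fragments over the group for a bound, and intervals are exact Clopper-Pearson (95%), for counting error only.

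Old was tested against young on log2(FPKM + 1) in limma 3.58.1 (R 4.3.3), whose empirical Bayes step was given a trend of variance on mean level. The test took the 11108 genes that averaged 1 FPKM or more over the 6 libraries. Two-sided p-values were adjusted by the Benjamini-Hochberg method over those genes, and a gene was called at an adjusted p under 0.05. The fit was tested on simulated data. Groups were called separated when all old values lay on the same side of all young values. Members and lists were chosen with earlier results of these data known. Each member is named once or more, and of each other list up to 6 genes (3 for marker lists) of highest mean, plus those said to be chosen after their values were seen. Some genes of these lists are not reported here by name. Alternatives changed the pseudocount, filter, normalization, weights, replicate block and libraries used; voom at 0.1 FPKM and the recounts of separated members were added after seeing the data. Promoters came from RefSeq (GRCm38.p6). Python 3.11.15 with pandas 2.3.3, numpy 2.4.6, scipy 1.17.1 and matplotlib 3.10.9 was used.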

Additional observations from a re-analysis of the deposited data

How the results depend on the processing

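Counts of fragments limit these results: 26 of the 38 members were above 0 in every library, and small differences among the rest were not detectable at this depth. The number of genes called was 4. It was 0 with a pseudocount of 0.1, with the replicate block, without the filter and when genes had to average 5 FPKM, 50 with array weights, 41 with voom on the recovered fragments and 95 with voom at a mean of at least 0.1 FPKM (added after seeing the data), and between 0 and 15 with 1 library left out (15 without young replicate 1). The cause was not tested. Members called (1, Actc1) became 0 with a pseudocount of 0.1, without the filter, on rescaling to TPM, with the replicate block and without each library in turn (0 to 0). The log2 change of Actc1 was -3.22 with a pseudocount of 0.1 (adjusted p = 0.0858), -1.37 without the filter (adjusted p = 0.068), -2.33 on rescaling to TPM (adjusted p = 0.065) and -1.37 with the replicate block (adjusted p = 0.169), and between -1.42 and -1.31 with 1 library left out. Over all 16 alternatives its adjusted p ranged from 0.00643 to 0.169, and its sign held in all 16. No member had a mean of at least 5 FPKM, so none was tested there.

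Replicate numbers occur in both groups. Deviations of same-numbered libraries correlated at 0.0321, 0.0542 and 0.0415, which is weak, although each old library correlated best with the young library of its number. These values cannot settle whether the libraries were paired, and the main fit treats them as unpaired. In the fit with the replicate block 0 genes were called.

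The median change of the fibre members (-0.08) was -0.33 with a pseudocount of 0.1, -0.22 on rescaling to TPM, -0.76 with voom, -0.31 over the 20 with a mean of at least 0.1 FPKM, and -0.12 to -0.048 with 1 library left out. That of the regulator members (-0.23) was -1.01 with a pseudocount of 0.1, -0.55 on rescaling to TPM, -1.55 with voom, -0.39 over the 6 with a mean of at least 0.1 FPKM, and -0.31 to -0.21 with 1 library left out. With 1 library left out, Tcap ranged from -0.15 (without old replicate 1) to 0.31 and Tnnt1 from -0.23 to 0.039 (without young replicate 2), so both signs turned; neither gene passed. The 19 members separated and lower in old became 19 to 24 with 1 library left out and 19 with scaling to all recovered fragments. The 1 separated and higher became 1 to 2 with 1 library left out. Leaving out a library cannot undo a separation, so neither count could fall, and these ranges give no support.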
